A study of Mus musculus with 6 samples.

Results

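The genes of the microtubule motors, the kinesins, the dyneins and the dynein cofactor dynactin, were examined in cells sorted from the mouse colon. A gene was included when a probe set of the array carried its symbol alone and the symbol was that of a kinesin heavy chain, a kinesin light chain, a dynein chain or a dynactin subunit. This gave 59 of the 18193 genes measured: 37 kinesin heavy chains, 3 kinesin light chains, 13 dynein chains and 6 dynactin subunits. They were covered by 141 probe sets, and each gene was represented by its brightest probe set, averaged over all 6 libraries. Symbols decided membership, with no measured level involved.

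The mice carried EGFP at the tau locus (strain Mapttm1(EGFP)Klt/J), so that EGFP marks cells in which the tau gene Mapt is active, chiefly neurons. Every animal, in both groups, had also received Alexa Fluor 647-labelled cholera toxin subunit B, a retrograde tracer, in the celiac ganglion under pentobarbital anaesthesia, and was killed 3 to 4 days later. FACS gave 3 libraries labelled EGFP-positive colonic neurons and 3 labelled EGFP-negative myenteric cells. Myenteric refers to the nerve network between the muscle layers, and both names are those of the labels. Each library pooled 2, 4 or 6 mice. Their zygosity and age, and which library pooled how many, are not given in the sources used here. About 50 ng of total RNA per library was labelled for Affymetrix mouse arrays of 45101 probe sets. All levels below are the deposited log2 values. A gene's values are printed for EGFP-positive replicates 1, 2 and 3 and then, after "against" or "and", for EGFP-negative replicates 1, 2 and 3. Differences are EGFP-positive minus EGFP-negative. Levels of different genes are not compared, since each probe set has its own response.

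Kinesins walk along microtubules, mostly towards their growing ends, and in axons they carry vesicles, mitochondria and membrane proteins from the cell body to the terminal. Cytoplasmic dynein, with dynactin, carries cargo back towards the cell body and also works in every dividing or migrating cell. A separate set of kinesins builds and separates the mitotic spindle and is made mainly by dividing cells. Mature enteric neurons depend on the transport motors over long axons and do not divide.

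Neuronal identity differed among the libraries that share the EGFP-positive label, and this bears on every comparison below. Mapt read 1.43, 1.32 and 5.55 against 1.44, 1.64 and 1.38, while the probe sets of TrpnX, a bacterial transcript absent from the samples, read 1.00 to 1.48. Mapt thus read near background in the libraries labelled EGFP-positive replicates 1 and 2. EGFP sits at this locus and zygosity is not given, so this level alone does not show whether the cells carried EGFP. Directions are given by label only. All 14 neuron markers had their highest value in EGFP-positive replicate 3. Their mean was 3.24, 3.16 and 6.55 against 3.34, 3.52 and 3.76. All 7 measured enteric glia markers were also highest in that library, with means of 6.43, 6.00 and 8.23 against 4.65, 5.68 and 5.27. The 10 macrophage markers averaged 6.45, 3.12 and 1.96 against 8.21, 8.30 and 6.61, and the 7 smooth muscle markers 8.84, 8.41 and 10.37 against 9.29, 8.69 and 10.64. The 8 intestinal epithelium markers averaged 8.0, 7.4 and 5.1 against 6.7, 7.1 and 5.7. For the 5 mesothelium markers the means were 9.7, 9.2 and 7.4 against 9.4, 8.8 and 7.7. Each library had 6182 (EGFP-negative replicate 1) to 7621 probe sets above a log2 value of 6. In such mixed samples, a lower share of a cell type and less RNA per cell cannot be told apart.

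None of the 59 motor genes passed the test between the labels. At a Benjamini-Hochberg adjusted p of 0.05 in limma, 0 of 59 members and 0 of all 18193 genes (0%) were called, and the members' adjusted p ran from 0.986 to 1.00. With the replicate number as a block, it ran from 0.661 to 0.996. At an unadjusted p under 0.05, 1 member, Kif5c, was past the threshold, where 893 of all genes (4.91%) were. With the block this count over all genes was 1345, and Kif5c was again the 1 member. The groups did not overlap, with EGFP-positive higher, in 3 members, Kif5c, Kif5b and Kif17, against 3.07% of all genes. They did not overlap, with EGFP-positive lower, in 1 member, Kif6, against 6.04% of all genes. Counts this small are close to those shares. The split over all genes, 559 higher and 1099 lower, depends on the scaling: it was 819 and 576 with median centring, 1167 and 913 with quantile normalisation and 5071 and 239 with arrays centred on ribosomal protein genes. The median difference was 0.04 over the 59 members and -0.02 over all genes.

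**Figure D1:**
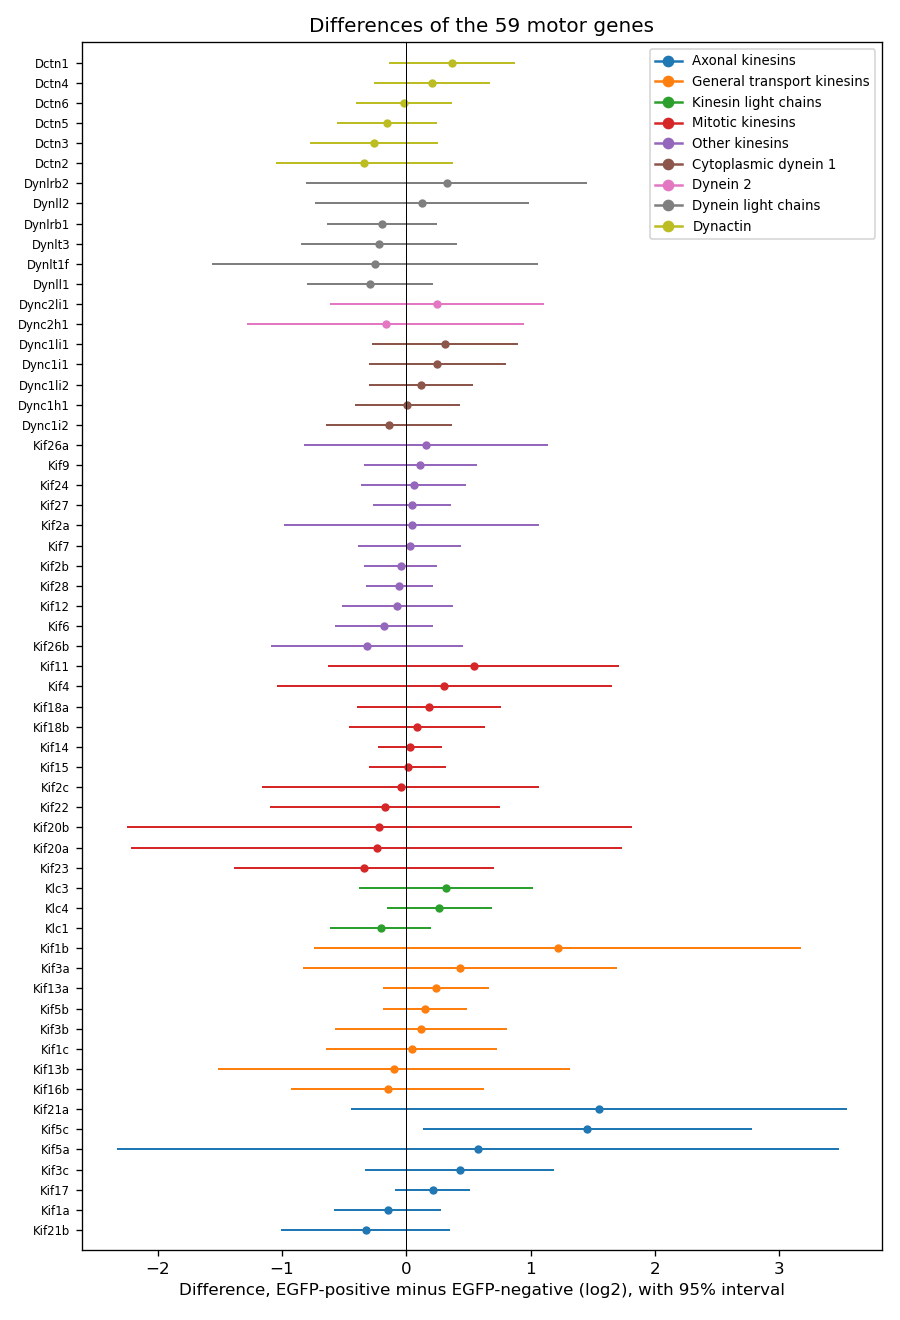
Difference of each of the 59 motor genes, EGFP-positive minus EGFP-negative (x axis, log2), with its 95% interval from limma (bars), ordered within role groups marked by colour. Only the interval of Kif5c, from 0.14 to 2.77, lies away from 0, and the widest intervals belong to Kif5a, Kif20b, Kif21a and Kif20a.

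What varied was the pattern among libraries, which differed between the axonal and the mitotic kinesins. The 7 kinesins that neurons make most of (Kif1a, Kif3c, Kif5a, Kif5c, Kif17, Kif21a and Kif21b) averaged 3.10, 3.28 and 4.52 against 2.87, 3.21 and 3.21. The 11 mitotic kinesins averaged 3.25, 4.38 and 3.26 against 3.42, 3.62 and 3.81. The axonal group was thus highest in EGFP-positive replicate 3 and the mitotic group in EGFP-positive replicate 2. Among the axonal kinesins 4 of 7 had their highest value in EGFP-positive replicate 3, as did 0 of 11 mitotic kinesins and 19.6% of all genes. Among the mitotic kinesins 8 of 11 had theirs in EGFP-positive replicate 2, as did 1 of 7 axonal kinesins and 10.8% of all genes. These counts describe single libraries that were singled out after their values were seen, and they carry no test. Set against each gene's own mean over the 6 libraries, the axonal group stood 1.52 above the mitotic group in EGFP-positive replicate 3 and 0.85 below it in replicate 2 (a contrast of -0.85). In the other 4 libraries the contrast lay between -0.34 and 0.11. With EGFP-positive replicate 3 as the one EGFP-positive library, the median difference was 1.05 over the axonal and -0.19 over the mitotic kinesins, where it was 0.43 and 0.01 with all 3. Without that library the medians were 0.12 and 0.20, so that the axonal group no longer stood above the mitotic one.

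**Figure D2:**
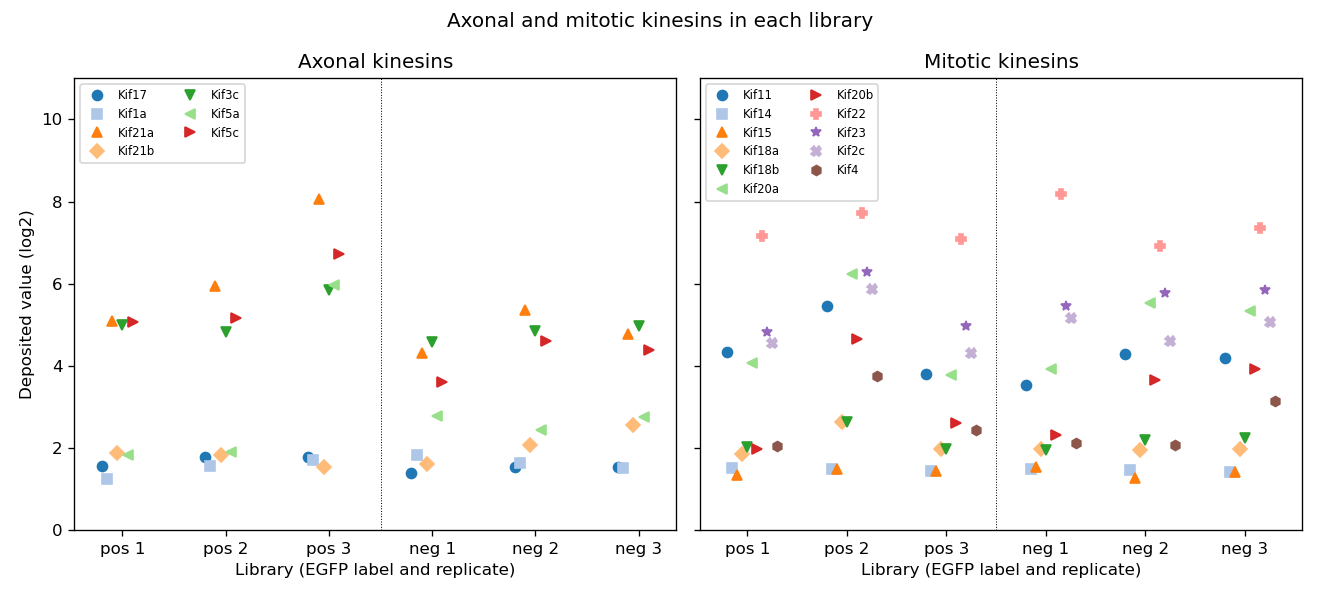
Deposited log2 value (y axis) of each axonal kinesin (left) and each mitotic kinesin (right) in the 6 libraries (x axis: pos, EGFP-positive; neg, EGFP-negative; number, replicate), 1 point per gene and library. Kif5a, Kif5c, Kif21a and Kif3c lie highest in EGFP-positive replicate 3, whereas Kif11, Kif20a, Kif20b, Kif23, Kif2c and Kif4 lie highest in EGFP-positive replicate 2.

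Among the axonal kinesins, Kif5c, a neuron-enriched heavy chain of kinesin-1, came nearest to a separation of the labels. Kif5c read 5.07, 5.16 and 6.72 against 3.61, 4.60 and 4.37. Every EGFP-positive value lay above every EGFP-negative value, and the gap was widest for replicate 3. The difference was 1.45 (SE 0.53; limma, unadjusted p = 0.0356, adjusted p = 0.986), and within the same-numbered pairs it was 1.46, 0.56 and 2.34. As the mean of all 4 Kif5c probe sets, of which 2 stay near background, the difference was 0.65. Leaving out EGFP-positive replicate 3 gave 0.92, and Kif5c was not below the unadjusted threshold without EGFP-negative replicate 1 (1.16) or EGFP-negative replicate 3 (1.54). The second Kif5c probe set well above background read 2.75, 2.49 and 4.32 against 2.41, 2.59 and 1.34, so that the groups overlapped there, with the highest value again in EGFP-positive replicate 3. Among the cell type markers, EGFP-positive was higher without overlap in 4 of 7 enteric glia and 0 of 14 neuron markers. Over all genes this share was 3.07%. The part of any cell type in the Kif5c level was not tested.

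Kif5a, the kinesin-1 heavy chain most restricted to neurons, showed the steepest contrast of 1 library with the rest. Its values were 1.83, 1.90 and 5.96 against 2.78, 2.43 and 2.74. EGFP-positive replicates 1 and 2 held the 2 lowest values and replicate 3 the highest, 3.62 above the mean of the other 5 libraries. The difference between the labels was 0.58 (SE 1.16; limma, adjusted p = 1.00). It turned to -0.79 without EGFP-positive replicate 3, and was 1.28 without EGFP-positive replicate 1 and 1.24 without EGFP-positive replicate 2. The other Kif5a probe sets stayed between 1.18 and 1.93.

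Kif21a, a kinesin that restrains microtubule growth and is carried in axons, read 5.10, 5.93 and 8.07 against 4.32, 5.37 and 4.78. The groups overlapped, since EGFP-positive replicate 1 lay below EGFP-negative replicate 2. Its difference, 1.55 (SE 0.80), was the largest among the 59 members and did not pass (limma, adjusted p = 1.00). Leaving out EGFP-positive replicate 3 gave 0.70, and the mean of the 3 Kif21a probe sets gave 0.86. A second Kif21a probe set gave 3.65, 3.93 and 6.11 against 3.46, 4.04 and 3.87, with 1 high library in common with the first.

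Kif3c, a neuronal partner subunit of the kinesin-2 motor, read 4.99, 4.83 and 5.85 in the EGFP-positive and 4.57, 4.84 and 4.97 in the EGFP-negative libraries. Its difference was 0.43 (SE 0.30; limma, adjusted p = 1.00), or 0.12 when EGFP-positive replicate 3 was left out, and the groups overlapped. The second Kif3c probe set read 2.04, 1.82 and 4.09 against 2.02, 1.65 and 1.78, a sharper rendering of the same single high library.

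The other 3 axonal kinesins were dim in every library. Kif1a, the carrier of synaptic vesicle precursors, read 1.25, 1.56 and 1.71 against 1.83, 1.62 and 1.52, and its second probe set stayed between 1.24 and 1.40. Both lie near the TrpnX background, at which no difference can be read, also in the library where Kif5a was high. Kif17, a dendritic kinesin, read 1.57, 1.77 and 1.77 against 1.40, 1.53 and 1.54. Its groups did not overlap, but its difference was only 0.21 (SE 0.12) at a level close to background. Kif21b, a relative of Kif21a found in neurons and lymphocytes, read 1.89, 1.82 and 1.55 against 1.60, 2.07 and 2.56. It was the member of this group with the lowest difference, and EGFP-negative replicate 3, which held its highest value, also had the highest mean of the 8 measured lymphocyte and plasma cell markers (5.73, where the other libraries had 1.21 to 5.00). The part of those cells in the Kif21b level was not tested. The second Kif21b probe set read 1.40, 1.38 and 1.39 against 1.74, 1.40 and 1.34, and was lowest in EGFP-negative replicate 3. Both lie close to background, at which no difference can be read.

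The kinesins that many cell types use for transport followed the axonal group in part. Kif1b, a carrier of mitochondria and synaptic vesicle precursors, read 7.24, 7.47 and 8.72 against 5.01, 7.35 and 7.42. EGFP-positive replicate 3 was high and EGFP-negative replicate 1 was low, and the other 4 libraries lay within a narrow band. The difference was 1.22 (SE 0.78; limma, adjusted p = 1.00), and leaving out EGFP-negative replicate 1 gave 0.42 and EGFP-positive replicate 3 gave 0.76. The 5 Kif1b probe sets above 3 in some library all had their highest value in EGFP-positive replicate 3, with differences of 0.36 to 2.08. In 3 of them every EGFP-positive value lay above every EGFP-negative value, as in one at 6.03, 5.22 and 6.66 against 4.76, 3.74 and 3.18.

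Kif3a, a shared subunit of kinesin-2 that also works in cilia, read 3.91, 4.41 and 5.79 against 3.97, 4.43 and 4.42. Its 4 probe sets all peaked in EGFP-positive replicate 3, and in 1 of them, at 3.39, 3.54 and 4.34 against 2.38, 3.23 and 3.11, the groups did not overlap. The difference was 0.43 (SE 0.50; limma, adjusted p = 1.00) and turned to -0.11 without that library. Kif3b, its usual partner, stayed between 2.49 and 3.35.

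Kif5b, the kinesin-1 heavy chain of nearly all cells, read 8.16, 8.13 and 8.15 in the EGFP-positive and 8.08, 8.12 and 7.78 in the EGFP-negative libraries. The groups did not overlap, but the difference was 0.15 (SE 0.13; limma, adjusted p = 1.00), with an interval of -0.18 to 0.48, and was 0.05 without EGFP-negative replicate 3. At the brightest probe sets, Kif5a and Kif5c, close relatives with the same motor, thus had ranges of 4.12 and 3.11 over the 6 libraries. That of Kif5b was 0.38 there. The other Kif5b probe sets had ranges of 0.39 to 2.45, and in all of them the groups overlapped. Over the 8 general transport kinesins the median difference was 0.14. The highest value lay in EGFP-positive replicate 3 for 3 of them, where it did for 19.6% of all genes. For another 3 it lay in EGFP-negative replicate 2. Kif16b, an endosome motor, had the lowest difference of this group and read 3.84, 4.69 and 4.15 against 3.91, 4.72 and 4.50. The remaining Kif1c, Kif13a and Kif13b had differences between -0.10 and 0.24 at their brightest probe sets. All 5 Kif13a probe sets had differences above 0, up to 1.35. In the one with 1.35, at 4.47, 3.29 and 2.90 against 2.53, 2.03 and 2.02, the groups did not overlap.

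Kinesin light chains bind the cargo of kinesin-1, and Klc1 is the form that neurons make most of. Klc1 gave different patterns with different probe sets. The probe set with the highest mean read 6.70, 7.15 and 7.02 in the EGFP-positive and 7.27, 7.19 and 7.03 in the EGFP-negative libraries, a difference of -0.21 (SE 0.16; limma, adjusted p = 1.00) whose sign turned to 0.12 with arrays centred on ribosomal protein genes. A second one, also bright, read 5.38, 5.47 and 8.44 against 5.57, 6.10 and 6.21. There EGFP-positive replicate 3 stood 2.69 above the mean of the other 5 libraries, and replicates 1 and 2 lay lowest. Which transcripts the 2 probe sets detect was not tested. Klc3 had the highest difference of this group and read 3.29, 2.44 and 2.44 against 2.63, 2.42 and 2.18, and Klc4 read 4.22, 3.81 and 3.72 against 3.57, 3.66 and 3.72. Neither was highest in the library where Kif5a was high.

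**Figure D3:**
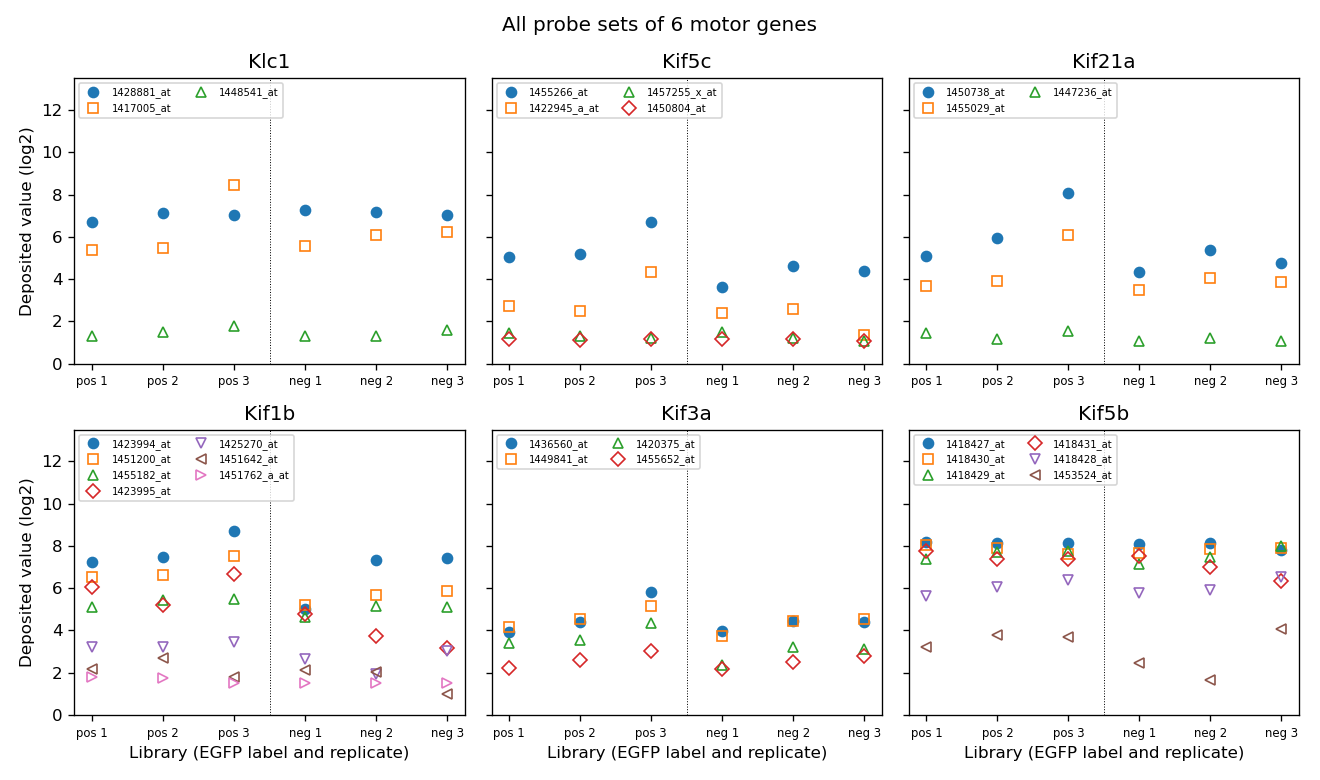
Deposited log2 value (y axis) in the 6 libraries (x axis: pos, EGFP-positive; neg, EGFP-negative; number, replicate) for every probe set of Klc1, Kif5c, Kif21a, Kif1b, Kif3a and Kif5b. Filled points mark the probe set with the highest mean, which represents the gene. EGFP-positive replicate 3 is high in 1 bright Klc1 probe set and not in the other, and Kif5b lacks such a peak in its brightest probe set.

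The mitotic kinesins had their own distribution over the libraries. Kif11, which slides spindle microtubules apart, read 4.35, 5.46 and 3.81 against 3.52, 4.29 and 4.19. Its difference, 0.54 (SE 0.47; limma, adjusted p = 1.00), was the highest of the group, and it ran from 0.08 without EGFP-positive replicate 2 to 0.90 without EGFP-positive replicate 3, with 0.30 without EGFP-negative replicate 1 and 0.24 as the mean of its probe sets. A second Kif11 probe set read 2.27, 4.03 and 2.19 against 2.03, 2.68 and 3.12, and so was also highest in EGFP-positive replicate 2.

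Kif20a, a motor of the midbody, read 4.08, 6.23 and 3.77 against 3.92, 5.53 and 5.34. EGFP-positive replicates 1 and 3 and EGFP-negative replicate 1 formed the low values and the other 3 libraries the high ones, which cuts across the labels. The difference was -0.24 (SE 0.79). It was -1.01 without EGFP-positive replicate 2 and turned above 0 without EGFP-positive replicate 1 (0.07), EGFP-positive replicate 3 (0.22) or EGFP-negative replicate 2 (0.06). Kif23, the kinesin of the central spindle, read 4.83, 6.28 and 4.97 against 5.47, 5.78 and 5.86, a difference of -0.34 (SE 0.42) and the lowest of the group. Leaving out EGFP-positive replicate 2 gave -0.80, EGFP-positive replicate 1 gave -0.08 and EGFP-positive replicate 3 gave -0.15.

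Kif2c, which takes microtubules apart at the kinetochore, read 4.55, 5.86 and 4.31 against 5.17, 4.61 and 5.08. Kif4, a chromosome-bound kinesin, read 2.04, 3.76 and 2.45 against 2.12, 2.07 and 3.14. Kif20b, another kinesin of cell division, read 1.97, 4.66 and 2.61 against 2.31, 3.67 and 3.92. In all 3, at the brightest probe set, EGFP-positive replicate 2 was the highest library and the other EGFP-positive libraries lay within or below the EGFP-negative range. That Kif2c probe set can also detect related transcripts, by the suffix of its name. The other Kif2c probe sets, which read at most 2.35, were highest in EGFP-negative replicate 3.

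Kif22, which pushes chromosome arms, was an exception in its brightest probe set, at 7.16, 7.72 and 7.08 against 8.18, 6.93 and 7.36. Its other 2 probe sets were highest in EGFP-positive replicate 2, one of them at 4.15, 5.14 and 3.68 against 4.10, 4.57 and 4.59. Kif15, a spindle kinesin, read 1.34, 1.49 and 1.43 against 1.54, 1.27 and 1.42, near background. Kif14 stayed between 1.41 and 1.51, and Kif18a and Kif18b peaked in EGFP-positive replicate 2 at 2.64 and 2.63. The median difference of 0.01 over the 11 mitotic kinesins ran from -0.20 (without EGFP-positive replicate 2) to 0.20 (without EGFP-positive replicate 3) when 1 library was left out, and that of the 7 axonal kinesins from 0.12 to 0.63.

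Genes of cell division outside the 59 members had the same library pattern as the mitotic kinesins. Of a list of 20 proliferation genes, which includes the spindle motors Kifc1 and Cenpe, 19 were measured, 0 passed between the labels, and all 19 had their highest value in EGFP-positive replicate 2. Their mean was 4.86, 6.02 and 4.74 in the EGFP-positive and 4.84, 5.36 and 5.58 in the EGFP-negative libraries. Bub1, a spindle checkpoint kinase and the lowest difference of the list, read 2.51, 5.49 and 3.02 against 3.02, 4.47 and 5.09. Aurka, a spindle pole kinase and the highest, read 4.29, 4.90 and 3.33 against 3.07, 3.66 and 4.35. In the same library the neuron markers averaged 3.16, the lowest of the 6. The 5 endothelial markers had their highest mean there, with 4.73 to 6.89 (EGFP-negative replicate 2) in the other libraries. Only 1 of these 5, Kdr, was itself highest in EGFP-positive replicate 2. The highest value lay in EGFP-negative replicate 2 for 3 of them and in EGFP-negative replicate 3 for 1. The part of any cell type in the mitotic kinesin levels was not tested.

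**Figure D4:**
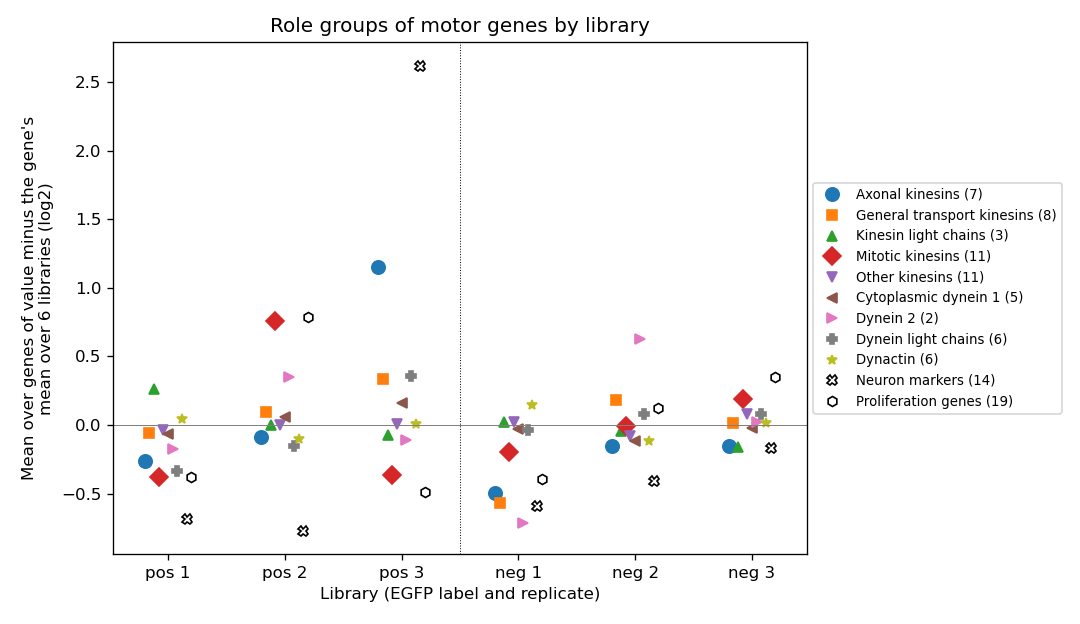
Mean over the genes of each role group of the value minus the gene's own mean over the 6 libraries (y axis, log2), by library (x axis: pos, EGFP-positive; neg, EGFP-negative; number, replicate). Coloured symbols are motor groups, open symbols the neuron markers and proliferation genes, and numbers in brackets count genes. Axonal kinesins (1.15) and neuron markers (2.62) lie highest in EGFP-positive replicate 3, and mitotic kinesins (0.76) and proliferation genes (0.79) in EGFP-positive replicate 2. Enteric glia markers, which are not drawn, also had their highest mean in EGFP-positive replicate 3 (2.18).

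The promoters of the axonal and mitotic kinesins are shown because the means of these groups peaked in different libraries. Not every member did so, and Kif22, printed below, was highest in EGFP-negative replicate 1 at its brightest probe set. RefSeq promoter windows of GRCm38.p6, from 250 bases before to 50 after the start, matched 48 of the 59 members. Where a member had several windows, only the most upstream was used, whereas the shares over all windows count every window of a gene. The windows were searched on both strands for TTTGAA (the cell cycle homology region, CHR), CCAAT (the CCAAT box) and GGGCGG (the GC box), and overlapping matches of different motifs were each counted. TTTGAA was found in 9 of 10 mitotic kinesin windows and in 0 of 5 axonal ones, where 17.9% of all 32851 windows hold it. CCAAT was found in 6 of 10 mitotic and 0 of 5 axonal windows, against 37.4% of all windows, and GGGCGG in 6 of 10 and 3 of 5, against 35.7%. The 120 bases before the start are printed 5′ to 3′ on the gene's strand for Kif11, Kif22, Kif5c and Kif21a. Kif11 and Kif22 each have 1 TTTGAA match there, and the whole Kif22 window holds 2. Capitals mark matches on either strand, so that TTCAAA is TTTGAA and ATTGG is CCAAT read on the other strand.
Kif11 (chr19:37376262-37376381, + strand): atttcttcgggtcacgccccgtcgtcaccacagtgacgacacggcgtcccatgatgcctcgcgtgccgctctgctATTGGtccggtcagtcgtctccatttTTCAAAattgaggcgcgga
Kif22 (chr7:127042421-127042540, - strand): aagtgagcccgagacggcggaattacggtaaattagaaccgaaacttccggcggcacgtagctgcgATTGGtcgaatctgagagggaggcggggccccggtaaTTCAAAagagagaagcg
Kif5c (chr2:49619166-49619285, + strand): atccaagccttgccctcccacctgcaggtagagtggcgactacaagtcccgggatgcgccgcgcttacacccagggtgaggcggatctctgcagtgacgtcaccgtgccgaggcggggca
Kif21a (chr15:91049952-91050071, - strand): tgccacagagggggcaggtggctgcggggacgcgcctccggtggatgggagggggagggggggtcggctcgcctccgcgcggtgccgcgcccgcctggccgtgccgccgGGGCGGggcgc
Both mitotic promoters hold an inverted CCAAT box upstream of the TTTGAA match, and neither axonal one holds either motif. A match is a description of letters in a window and shows no binding.

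Of the 11 other kinesins, 7 stayed below a log2 value of 3 in every library. Kif26a, a kinesin without motor activity that limits growth factor signalling and whose loss in mice enlarges the enteric ganglia, read 4.87, 4.81 and 5.33 against 5.52, 4.08 and 4.92. The highest and the lowest value both lay in the EGFP-negative libraries, and its difference was still the highest of this group. Kif2a, a microtubule depolymeriser that prunes axon branches, read 5.00, 6.15 and 5.75 against 4.94, 5.97 and 5.85. Replicate 1 was low under both labels. Kif26b, a relative of Kif26a, had the lowest difference and read 3.28, 2.84 and 2.55 against 2.94, 2.94 and 3.74. Kif7, a regulator of Hedgehog signalling in the cilium, stayed between 3.28 and 3.75. Kif6 read 1.54, 1.53 and 1.49 against 1.98, 1.55 and 1.57, a difference of -0.18 (SE 0.15; limma, adjusted p = 1.00) near background that was -0.04 without EGFP-negative replicate 1 and whose sign turned with arrays centred on ribosomal protein genes.

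Dynein and dynactin genes, taken as a group, had smaller library peaks than the axonal and mitotic kinesins: their mean, set against each gene's own mean, lay between -0.13 and 0.15 in the 6 libraries. Some parts spread wider. The 2 genes of the dynein of cilia ran from -0.71 (EGFP-negative replicate 1) to 0.63 (EGFP-negative replicate 2). The 6 light chains ran from -0.33 (EGFP-positive replicate 1) to 0.36 (EGFP-positive replicate 3). The 19 dynein and dynactin genes had differences between -0.34 and 0.37 and a median of -0.02. The groups overlapped in all 19 at the brightest probe set, where 3.07% of all genes were separate with EGFP-positive higher and 6.04% with it lower. Over the 6 libraries the median range of the 19 genes was 0.78, where it was 0.79 over all genes, 1.28 over the axonal and 1.45 over the mitotic kinesins. Dync1h1, the heavy chain that forms the motor, was 8.41 ± 0.10 (SD, n = 3) in the EGFP-positive and 8.40 ± 0.26 (SD, n = 3) in the EGFP-negative libraries. With the values as deposited, the 95% interval of its difference was -0.41 to 0.42. Centring on ribosomal protein genes adds 0.33 to every difference. In the single libraries it read 8.37, 8.33 and 8.53 against 8.11, 8.52 and 8.58, with no peak in EGFP-positive replicate 3. The second Dync1h1 probe set read 2.01, 1.92 and 1.92 against 1.70, 1.68 and 1.55, close to background. Its groups did not overlap.

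The intermediate chains link the motor to dynactin. Dync1i2, the form of all tissues, read 8.01, 8.32 and 8.16 against 8.68, 8.12 and 8.10. Dync1i1, the neuronal form, read 1.73, 1.66 and 2.23 against 1.78, 1.76 and 1.34. Its highest value lay in EGFP-positive replicate 3, at a level too close to background for a difference to be read. Of the light intermediate chains, Dync1li1 had the highest difference of cytoplasmic dynein and read 5.38, 5.90 and 5.85 against 5.56, 5.02 and 5.61, and Dync1li2 stayed between 6.33 and 6.86.

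Dynll1, a light chain found in dynein and in many other complexes, was bright throughout. It read 10.76, 11.27 and 11.38 against 11.54, 11.27 and 11.47, a difference of -0.29 (SE 0.20; limma, adjusted p = 1.00). All 4 Dynll1 probe sets gave differences below 0, from -0.41 to -0.23. In 1 of them, at 10.37, 10.51 and 10.63 against 10.95, 10.98 and 10.82, the groups did not overlap. Without EGFP-positive replicate 1 the difference of the brightest was -0.10, and its sign turned to 0.04 with arrays centred on ribosomal protein genes. Dynll2, its close relative, read 7.35, 7.24 and 7.97 against 7.33, 6.88 and 7.97, equal in both replicates numbered 3. Dynlrb2, a light chain of ciliated cells, had the highest difference of the light chains and read 2.20, 1.54 and 3.25 against 2.10, 2.20 and 1.72. Dynlt3, a light chain that binds cargo, read 8.11, 8.64 and 8.97 against 8.96, 8.61 and 8.81, and its 4 probe sets above 3 were all highest in EGFP-positive replicate 3. Dynlrb1, Dynlt1f and Dynlt3 had differences between -0.25 and -0.20.

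The dynein of cilia was represented by its heavy chain Dync2h1, at 1.66, 2.71 and 2.17 against 1.65, 3.07 and 2.33, and by Dync2li1, at 6.04, 6.04 and 5.67 against 4.98, 6.24 and 5.78. Dync2h1 ran in parallel under both labels, lowest in replicate 1 and highest in replicate 2.

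Dynactin is the complex that lets dynein move far along a microtubule. Dctn1, the large subunit that grips dynein and microtubules and whose mutation causes motor neuron disease, read 8.16, 7.69 and 7.98 against 7.38, 7.46 and 7.88. The difference was 0.37 (SE 0.20; limma, adjusted p = 1.00), the highest among dynein and dynactin genes, and the groups overlapped. That probe set can also detect related transcripts, by the suffix of its name, and the other one, at 4.72, 4.18 and 4.67 against 4.27, 3.88 and 5.18, gave a difference of 0.08. Dctn2, dynamitin, read 7.81, 7.40 and 7.91 against 8.58, 7.87 and 7.68, the lowest difference. Dctn3, Dctn4, Dctn5 and Dctn6 had differences between -0.26 and 0.20. A second Dctn6 probe set, at 7.67, 7.69 and 7.48 against 7.91, 8.08 and 7.75, had groups that did not overlap.

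Adaptors and regulators of these motors, with the kinesins Kifc2 and Kifc3 that the 59 members do not include, formed a list of 27 genes, of which 24 were measured. None passed between the labels, and 2 had an unadjusted p under 0.05, where 4.91% of all genes did. The median difference was 0.14, and 11 of 24 had their highest value in EGFP-positive replicate 3, where 19.6% of all genes did. Fez1, a kinesin-1 adaptor of axons, had the highest difference and read 6.19, 6.30 and 7.48 against 5.03, 6.57 and 5.68. Pafah1b1, the dynein regulator LIS1, had the lowest and read 6.71, 6.76 and 6.48 against 6.97, 6.93 and 7.04. Its groups did not overlap, nor did those of Map7, a kinesin-1 activator, in the other direction, with values from 5.13 to 5.44 against 4.16 to 5.07. The 2 genes below the unadjusted threshold were Pafah1b1 and Hook1, a dynein adaptor, at 5.65, 6.10 and 5.38 against 4.63, 5.49 and 4.72.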

How the data were processed

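The deposited table holds log2 expression values of 45101 probe sets on 6 arrays. The submitters' processing notes name RMA, with no settings. Medians per array were 1.91 to 1.99 and upper quartiles 4.08 to 4.86, a spread unusual after quantile normalisation. Values near background are therefore printed without a reading of the difference between the labels. The counts of highest libraries do include dim genes, such as Kif18a and Kif18b. Kif17 counts for EGFP-positive replicate 2 at 1.7685, with 1.7684 in EGFP-positive replicate 3. That the scale is log2 was judged from the range of the values. The number of arrays limits the precision.

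Symbols came from the platform annotation: 34945 probe sets had 1, 932 several and 9160 none, and 64 were controls. The 4 probe sets with several symbols that include a motor gene were left out. Groups were compared by limma (version 3.58.1, R 4.3.3), using lmFit and eBayes and adjusting two-sided p-values over the 18193 genes (Benjamini-Hochberg). The script was tested on simulated data. A p-value here reflects only how much these 6 libraries vary.

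Same-numbered libraries deviated together from their group means (Pearson r over all genes 0.364, 0.325 and 0.415 for numbers 1, 2 and 3), so the numbers were taken to pair the samples, and a fit with the replicate number as a block was run beside the main one. The labels do not state what a number shares. SEs, intervals and p-values printed for single genes come from the fit without the block. The block changed SEs in both directions, from 0.78 to 0.45 for Kif1b and from 0.16 to 0.17 for Klc1.

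Role groups, lists and named genes were chosen with earlier results of these data known. Genes named with values were a written list of motors, every member whose groups did not overlap or with unadjusted p under 0.05, and the highest and lowest difference of each group or list. Other probe sets and the remaining genes were named after their values were seen. Klc2, on that list, was not analysed here. The symbols were checked against RefSeq's, and 0 of 59 differed. Figures used Python 3.11.15, pandas 2.3.3 and matplotlib 3.10.9. Alternatives covered scaling, variance model, filter, probe set choice and each library left out.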

Additional observations from a re-analysis of the deposited data

How the results depend on the processing

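In every setting run, 0 of the 59 members passed at adjusted p 0.05. Over all genes the count was also 0, except that leaving out 1 library gave 0 to 2: 2 genes, Ccr2 and Fermt3, without EGFP-positive replicate 1. The replicate block moved the genes with unadjusted p under 0.05 from 893 to 1345, centring on ribosomal protein genes to 1757 and a test of the genes above the median level alone, which tests fewer genes, to 377. Members under that threshold, 1 as reported, were 2 with median centring, 6 with ribosomal centring, 3 with the mean of all probe sets and 1 to 2 with 1 library left out (Kif5c with Kif21a, Kif23 or Kif5a, or Kif21b alone without EGFP-negative replicate 1 and Dctn1 alone without EGFP-negative replicate 3). Genes whose groups did not overlap numbered 5310 with ribosomal centring, which raised the median gene by 0.33, and 880 above the median level. With 1 library left out they were 2815 to 3977, since fewer values overlap less. Members whose groups did not overlap were 16, 2 and 7 to 10 in those settings and 8 with the mean of all probe sets. The median difference of axonal kinesins was 1.45 above the median level, where fewer members remain. Signs turned with ribosomal centring for Klc1 (0.12), Kif6 (0.15), Kif20a (0.0885) and Dynll1 (0.0374), and with the mean of all probe sets for Klc1 (0.12). Centring on ribosomal protein genes adds 0.33 to every difference, so any difference between that size below 0 and 0 had to turn, which 22 of 59 members did. Signs turned in 4 members with median centring and in up to 16 with 1 library left out (without EGFP-positive replicate 3). The mean of all probe sets gave 0.31 for Kif5a, 0.13 for Kif17, 0.27 for Kif5b, -0.10 for Kif23 and 0.22 for Dctn1. The 3 members under the unadjusted threshold with that mean were Kif13a, Kif1b (0.91) and Kif5c (0.65). With 1 library left out Kif20a ran from -1.01 to 0.22, Kif5a from -0.79 to 1.28 and Kif3a from -0.11 to 0.83. In a setting chosen after seeing the data, EGFP-positive libraries 1 and 2 were both left out, and the lone library was assumed to vary like the EGFP-negative ones. Then 1699 genes and 7 members had an unadjusted p under 0.05, 9526 genes and 27 members no longer overlapped between labels, the median difference of axonal kinesins was 1.05 and Kif11 turned to -0.19.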
